A study of Homo sapiens with 12 samples.

Results

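The Wnt genes described here were 44 of the 19775 genes that a probe set annotated with a single gene symbol represented on the Affymetrix U133 Plus 2.0 array. They were chosen by symbol: the WNT ligands, the FZD (Frizzled) receptors, and a named list of co-receptors, secreted antagonists, β-catenin and its destruction complex, TCF/LEF transcription factors and feedback inhibitors. When several probe sets represented a gene, the brightest stood for it. Of the 44 genes, 32 passed a filter that removed dim probe sets and were among the 12132 genes tested. WNT3, WNT3A, FZD8 and TCF7 were not analysed here, because no probe set carried only their symbol.

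Total RNA came from 4 human cell lines of synovial sarcoma (Fuji, SYO-1, Aska-SS and Yamato-SS), each exposed for 24 h to ZSTK474, an inhibitor of all class I PI3K isoforms, at 0 (vehicle), 0.3 or 3 µM. Each line and dose was measured on 1 array, giving 12 arrays in 3 dose groups of 4 lines. All lines carry an SS18-SSX fusion, SS18-SSX1 in Aska-SS and Yamato-SS and SS18-SSX2 in SYO-1 and Fuji, and all were grown in serum-containing RPMI medium. Because separate cultures of a line at the same dose were not measured, the lines were the replicates of a dose, and the arrays of a line at its 3 doses gave the spread around that line's level.

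Wnt proteins are secreted lipid-modified ligands that bind a Frizzled receptor together with LRP5 or LRP6. In the canonical pathway this stops the destruction complex, built on AXIN and APC, from marking β-catenin (CTNNB1) for degradation, and β-catenin then enters the nucleus and activates genes with TCF/LEF factors. Secreted antagonists of the SFRP and DKK families act outside the cell, whereas AXIN2, NKD1, RNF43 and ZNRF3 are induced by the pathway and restrain it. Other ligands, such as WNT5A and WNT11, often act without β-catenin. Nuclear β-catenin and expression of Frizzled receptors are known features of synovial sarcoma, and Akt, which lies downstream of PI3K, can phosphorylate GSK3, a kinase of the destruction complex.

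Signals are quantile-normalized MAS5 intensities, and values below 12.1 were set to that floor. The deposited medians ranged from 60.1 to 85.3 between arrays. Of 8 synovial sarcoma markers, 6 passed the filter, and their summed signal (all 8) was 16389.7 to 33207 in the vehicle arrays and 18485 to 42615 with the higher dose; KRT19 and EPCAM were below the filter. None of 4 leukocyte markers passed, and CD14 was at the floor on every array; their summed signal was 115 to 319 without inhibitor and 119 to 165 with 3 µM. Of 4 endothelial markers only PECAM1 passed (98.6 to 172), with VWF, CDH5 and TEK below the filter; the list's summed signal was 172 to 333 without and 178 to 224 with 3 µM. The log2 ratio of 3′ to 5′ actin signal, which follows RNA integrity, shifted between 0 and 3 µM by 0.55 in Fuji and by 0.02 to 0.19 in the other lines, while that of GAPDH moved by -0.14 to 0.13. The arrays measured bulk RNA, so that fewer expressing cells and less RNA per cell cannot be told apart.

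Most Wnt genes differed in level between the cell lines. The level of 28 of the 32 tested genes (87.5%) differed between lines in limma's F test, against 81.7% of all genes tested, so that a difference between lines was the rule for these genes and for the array as a whole. The exceptions were AXIN1, WNT2B, WNT6 and WNT7B, with adjusted p from 0.0946 to 0.691. For 15 of the 32 (46.9%) the 3 arrays of the highest line lay above the other 9, against 30.2% of all genes. DKK1 and FRZB passed the filter only through their highest line, and without them the counts were 26 of 30 and 13 of 30. With line means under the filter of 65.1 set to it, the highest and lowest line means were more than 16-fold apart for 8 genes, and they were less than 2-fold apart for 8 others. Yamato-SS was the highest line for 10 genes, SYO-1 for 9, Fuji for 7 and Aska-SS for 6, whereas Aska-SS and Yamato-SS were each the lowest for 13. The counts by fold and by highest or lowest line include the exceptions named above. They were not made over all genes tested, so they describe these 32 genes only. These p-values rest on the arrays of single cultures and measure the spread within a line across its doses, not between cultures of a line.

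**Figure D1:**
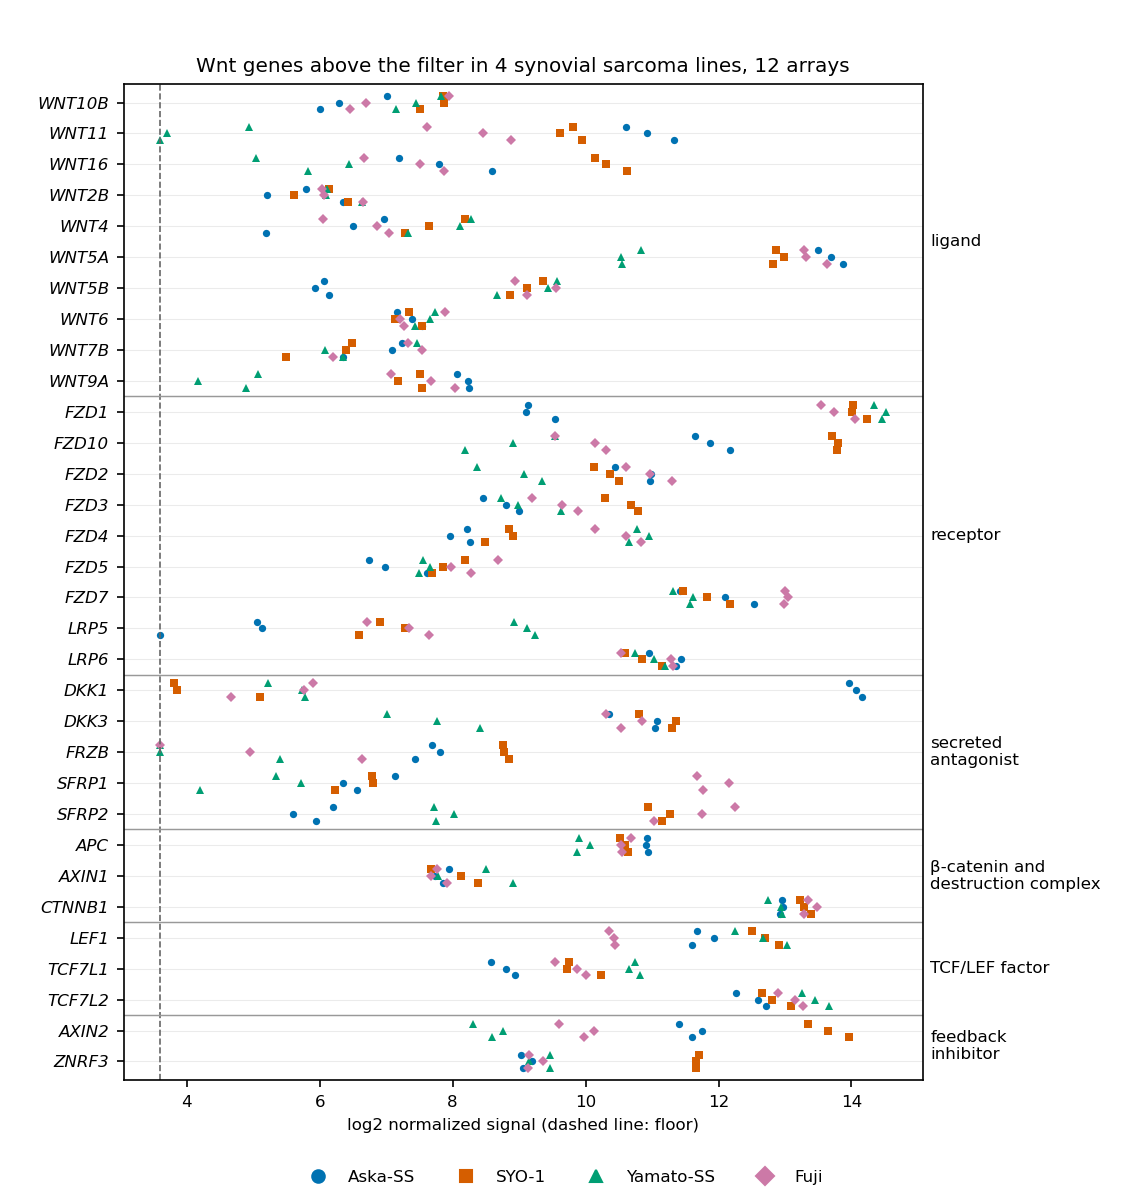
Log2 normalized signal (x axis) of the 32 Wnt genes that passed the filter (y axis, grouped by role) on each of the 12 arrays; symbols mark the cell line, and the 3 points of a line lie in dose order from top to bottom, 0, 0.3 and 3 µM. DKK1 stood apart in Aska-SS (15999.9 to 18212, against 13.96 to 59.7 elsewhere), and CTNNB1 lay within 2-fold across the line means.

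DKK1, the Dickkopf that blocks LRP5 and LRP6, showed the widest range of all members. The DKK1 signal at 0, 0.3 and 3 µM was 59.7, 54.1 and 25.4 in Fuji, 15999.9, 17134 and 18212 in Aska-SS, 37.4, 53.3 and 55.1 in Yamato-SS, and 13.96, 14.5 and 34.3 in SYO-1. Aska-SS did not overlap any other line, and its mean of 17091 was at least 262-fold higher, a bound taken against the filter because the means of the other lines, 19.1 to 47.9, lay below it. DKK1 passed the filter only through Aska-SS, so that no test of its difference between lines is given. Without Aska-SS the remaining line means spanned 1.33 on the log2 scale (adjusted p = 0.137, limma F test), so that the order of the other lines was not resolved. A single probe set represented DKK1.

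Sequences of the 250 bases before transcription start are shown for 3 members on which the results turn: DKK1, with the widest range between lines, FZD1, the receptor with the widest range, and TCF7L2, whose reporting probe set changed most evenly across lines. They were taken from RefSeq (GRCh38.p14) and are written 5′ to 3′ on the gene's strand, which is the plus strand for each. Capitals mark TCF/LEF words (CTTTGAT with its variants CTTTGAA and CTTTGTT, besides CTTTGTA) or the FOXO word GTAAACA, each searched on both strands; the TCF/LEF words do not overlap the FOXO word in these windows. A TCF/LEF word was found in 12% of 35116 RefSeq windows of this length, and the FOXO word in 2.98%.
DKK1, chr10:52314031-52314280: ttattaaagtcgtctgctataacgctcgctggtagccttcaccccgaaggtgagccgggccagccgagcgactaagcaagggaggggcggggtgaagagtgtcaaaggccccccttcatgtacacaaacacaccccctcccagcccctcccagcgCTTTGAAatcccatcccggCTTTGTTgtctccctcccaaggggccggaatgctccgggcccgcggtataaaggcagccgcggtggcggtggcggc
TCF7L2, first start, chr10:112949997-112950246: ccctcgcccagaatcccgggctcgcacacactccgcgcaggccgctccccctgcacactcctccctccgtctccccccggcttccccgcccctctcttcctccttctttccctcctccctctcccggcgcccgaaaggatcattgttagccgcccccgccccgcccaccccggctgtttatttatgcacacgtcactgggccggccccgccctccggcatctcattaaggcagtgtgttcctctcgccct
TCF7L2, second start, chr10:113126383-113126632: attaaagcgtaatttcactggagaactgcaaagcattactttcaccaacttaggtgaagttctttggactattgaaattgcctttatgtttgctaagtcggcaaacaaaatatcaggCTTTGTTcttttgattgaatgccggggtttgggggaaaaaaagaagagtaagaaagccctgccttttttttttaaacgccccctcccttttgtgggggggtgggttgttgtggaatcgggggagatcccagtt
FZD1, chr7:91264183-91264432: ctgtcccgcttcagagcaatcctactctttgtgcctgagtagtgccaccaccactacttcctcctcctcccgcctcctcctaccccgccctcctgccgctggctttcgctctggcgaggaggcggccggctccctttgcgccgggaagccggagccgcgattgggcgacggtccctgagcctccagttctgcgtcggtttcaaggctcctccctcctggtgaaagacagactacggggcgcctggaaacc

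DKK1 held 2 TCF/LEF words, beginning 95 and 76 bases before the start, and the second of 3 listed TCF7L2 starts held 1. The first TCF7L2 start and the FZD1 window held neither word. Windows were listed for 30 of the 44 members (37 windows in all), and those 2 windows were the only ones with a TCF/LEF word, while WNT5B alone held the FOXO word, beginning 26 bases before its start on the opposite strand. Of the 12 members that changed at 3 µM, windows were listed for FZD1, TCF7L1, TCF7L2 and WNT16; WNT7B, WNT10B, FZD2, FZD3, FZD7, LRP6, DKK3 and AXIN2 had none. These are matches of letters in a short window and say nothing about binding.

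Among the other antagonists, the SFRP family (secreted Frizzled-related proteins, which bind Wnt ligands) was divided between lines. SFRP1 belonged to Fuji: its signal at 0, 0.3 and 3 µM was 3273, 4570.2 and 3481 in Fuji, 141, 81.6 and 94.3 in Aska-SS, 40.4, 52.6 and 18.4 in Yamato-SS, and 110.4, 112 and 74.7 in SYO-1. Fuji's mean was 36.4-fold that of Aska-SS, the next line, and Yamato-SS was lowest, with no overlap at either end (adjusted p = 6.76e-09). SFRP2 was high in Fuji and SYO-1, with signals of 4846, 3441 and 2080.2 in Fuji, 73.2, 48.6 and 61.9 in Aska-SS, 209.8, 261 and 216 in Yamato-SS, and 1956, 2478 and 2281 in SYO-1; the arrays of these lines overlapped each other but not those of Yamato-SS or Aska-SS, and the highest line mean was at least 50.1-fold above the lowest (adjusted p = 2.43e-09). FRZB, also called SFRP3, gave 12.1, 30.98 and 99.3 in Fuji, 206, 224 and 174 in Aska-SS, 12.1, 12.1 and 42.3 in Yamato-SS, and 432, 435 and 459 in SYO-1. SYO-1 was highest for FRZB and Aska-SS next, while 3 arrays of Yamato-SS and Fuji were at the floor; FRZB passed the filter only through SYO-1, and no test of its lines is given. DKK3, a divergent Dickkopf, had line means of 2280.2 in SYO-1, 1809 in Aska-SS, 1512 in Fuji and 213 in Yamato-SS, and only Yamato-SS stood apart, below the rest (adjusted p = 2.31e-08).

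AXIN2, the scaffold protein induced by β-catenin and widely read as a gauge of the pathway, had a separate level in each line. The AXIN2 signal at 0, 0.3 and 3 µM was 778, 1112 and 1011 in Fuji, 2722, 3449 and 3089 in Aska-SS, 318, 434 and 386 in Yamato-SS, and 10420.3, 12764 and 15970.3 in SYO-1. The order SYO-1, Aska-SS, Fuji, Yamato-SS held with no overlap between neighbours, and the extremes differed 34.2-fold (adjusted p = 2.89e-11). All 4 AXIN2 probe sets placed SYO-1 first and Yamato-SS last by line mean. ZNRF3, a ubiquitin ligase that removes Frizzled receptors from the cell surface, was likewise highest in SYO-1: its signal was 570.2, 654 and 559 in Fuji, 523, 583 and 530.3 in Aska-SS, 709.5, 567 and 708 in Yamato-SS, and 3355, 3232 and 3253 in SYO-1, so that SYO-1 did not overlap the other lines, whose means were 545 to 658 (adjusted p = 7.86e-09). NKD1, another feedback inhibitor, fell below the filter and was not tested, with signals of 211, 289.7 and 322 in SYO-1 and of 17.1 to 98.7 in the other lines. RNF43, the relative of ZNRF3, was also below the filter (12.1 to 65.9).

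Receptors differed in kind between lines. FZD1 was the clearest: its signal at 0, 0.3 and 3 µM was 11943, 13682 and 17006 in Fuji, 563, 549.9 and 747 in Aska-SS, 20630.3, 23526 and 22627 in Yamato-SS, and 16673, 16420.5 and 19218 in SYO-1. Aska-SS was 22.9-fold below the next lowest line, Fuji, by line mean (adjusted p = 3.04e-12), and both other FZD1 probe sets also had Aska-SS lowest without overlap. FZD10, a receptor known to be present on synovial sarcoma cells, gave 746, 1124 and 1269.6 in Fuji, 3195, 3743 and 4619.7 in Aska-SS, 748, 479.6 and 290.4 in Yamato-SS, and 13313, 14276 and 14100.5 in SYO-1; SYO-1 stood above the rest, Aska-SS was second, and Yamato-SS and Fuji overlapped (adjusted p = 8.69e-08). FZD6 showed the reverse of FZD1, with 460.5, 405 and 465 in Aska-SS and 12.1 to 33.2 in the other lines, but its mean fell below the filter and it was not tested. FZD7 was highest in Fuji, whose mean of 8251 was 1.99-fold that of Aska-SS (adjusted p = 2.19e-05). The line means of FZD2, FZD3, FZD4 and FZD5 spanned 4.09-, 3.56-, 6.28- and 2.29-fold, with Yamato-SS lowest for FZD2 and Aska-SS lowest for the others (adjusted p of 1.03e-07, 4.62e-07, 1.34e-07 and 0.00628). FZD9 was below the filter (12.1 to 149.6).

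By their reporting probe sets, the co-receptors LRP5 and LRP6 differed from each other in this respect. LRP5 had signals of 105, 163 and 199.7 in Fuji, 33.1, 34.98 and 12.1 in Aska-SS, 485, 558 and 604 in Yamato-SS, and 120.2, 155 and 96.6 in SYO-1. Its line means ran from 24.1 in Aska-SS, below the filter, to 547 in Yamato-SS, at least 8.40-fold apart (adjusted p = 3.95e-06). SYO-1 and Fuji overlapped between them. A dim LRP5 probe set below the filter did not have Yamato-SS apart (38.8, 63.2 and 35.2, against 64.1, 94.5 and 28.7 in SYO-1). LRP6 line means lay within 1.31-fold of each other by the reporting probe set, and the arrays of the lines overlapped (adjusted p = 0.0439). Dimmer LRP6 probe sets above the filter differed more between lines. A set with 457, 466 and 527 in Fuji had 208, 207 and 170 in Yamato-SS. A further set had 401, 509 and 560 in Fuji and 222, 145 and 195 in Yamato-SS. Yamato-SS lay below the other lines without overlap in both.

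Of the ligands, WNT11 had the widest range. The WNT11 signal at 0, 0.3 and 3 µM was 195, 350.7 and 469.7 in Fuji, 1559, 1949 and 2563 in Aska-SS, 30.7, 13.04 and 12.1 in Yamato-SS, and 899, 787 and 985 in SYO-1. The 4 lines did not overlap, and the mean of Aska-SS was at least 30.4-fold higher than that of Yamato-SS, which lay below the filter with 1 array at the floor (adjusted p = 3.76e-08). WNT5A gave 10022, 10164 and 12642 in Fuji, 11567, 13254 and 15006 in Aska-SS, 1819, 1486 and 1493 in Yamato-SS, and 7436, 8074 and 7251 in SYO-1; Yamato-SS lay below the others without overlap and was 4.76-fold lower than SYO-1, the next line (adjusted p = 1.87e-09), and a second WNT5A probe set gave the same lowest line. WNT5B was instead lowest in Aska-SS (66.6, 60.98 and 70.7) and close together in the other lines, with means of 554 to 599 (adjusted p = 1.45e-07). WNT9A was highest in Aska-SS and lowest in Yamato-SS, at least 4.44-fold apart (adjusted p = 2.00e-06). By its reporting probe set, WNT16 was highest in SYO-1 and lowest in Yamato-SS, at least 20.1-fold apart and both without overlap (adjusted p = 1.07e-07). The other WNT16 probe set also had SYO-1 highest without overlap (640, 699 and 901). There Yamato-SS was not lowest, with 141, 172 and 204 against 126, 99.5 and 73.9 in Fuji, so the size of the gap and the lowest line are uncertain.

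WNT10B and WNT4 differed less, by 2.47- and 3.21-fold between extreme line means (adjusted p of 0.003 and 0.00502), with Aska-SS lowest for both. Signals of the ligands below the filter ranged over all arrays from 12.1 to 23.4 for WNT1, 12.1 to 59.98 for WNT2, 12.1 to 130.0 for WNT7A, 30.1 to 68.8 for WNT8A, 12.1 to 26.9 for WNT8B, 12.1 to 34.5 for WNT9B and 12.1 to 61.9 for WNT10A. The antagonist SFRP4 was also below it (12.1 to 119).

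Among the intracellular members, CTNNB1, which encodes β-catenin, had signals of 10462, 11375 and 10034 in Fuji, 7955, 8057 and 7754 in Aska-SS, 6844, 7864 and 7948 in Yamato-SS, and 9607, 9989 and 10758 in SYO-1, and its line means lay within 1.41-fold although they differed in the test (adjusted p = 0.000137). APC, a scaffold of the destruction complex, had line means from 984 in Yamato-SS to 1942 in Aska-SS (adjusted p = 2.12e-05), and AXIN1 ranged over 203 to 481. LEF1 was lowest in Fuji: its signal was 1309, 1382 and 1390.0 in Fuji, 3266, 3895 and 3114 in Aska-SS, 4879, 6488 and 8358 in Yamato-SS, and 5818, 6644 and 7683 in SYO-1, and Fuji lay 2.51-fold below Aska-SS by line mean with no overlap (adjusted p = 5.71e-08). TCF7L1 had line means of 438 in Aska-SS and 1711 in Yamato-SS as its extremes (adjusted p = 3.47e-07), and the same lines were the extremes of TCF7L2, 1.91-fold apart (adjusted p = 7.02e-07).

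Leaving out the line at an extreme narrows a range by construction, but the widest members differed in how far it narrowed. On the log2 scale, the range of line means fell from 9.81 to 1.33 for DKK1 without Aska-SS, from 6.87 to 2.64 for WNT11 without Yamato-SS, from 6.78 to 1.60 for SFRP1 without Fuji, and from 5.18 to 0.66 for FZD1 without Aska-SS. Without SYO-1 it was 3.03 in place of 5.10 for AXIN2, 3.02 in place of 4.88 for FZD10 and 3.44 in place of 4.59 for FRZB, and without Aska-SS 3.84 in place of 5.76 for SFRP2.

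**Figure D2:**
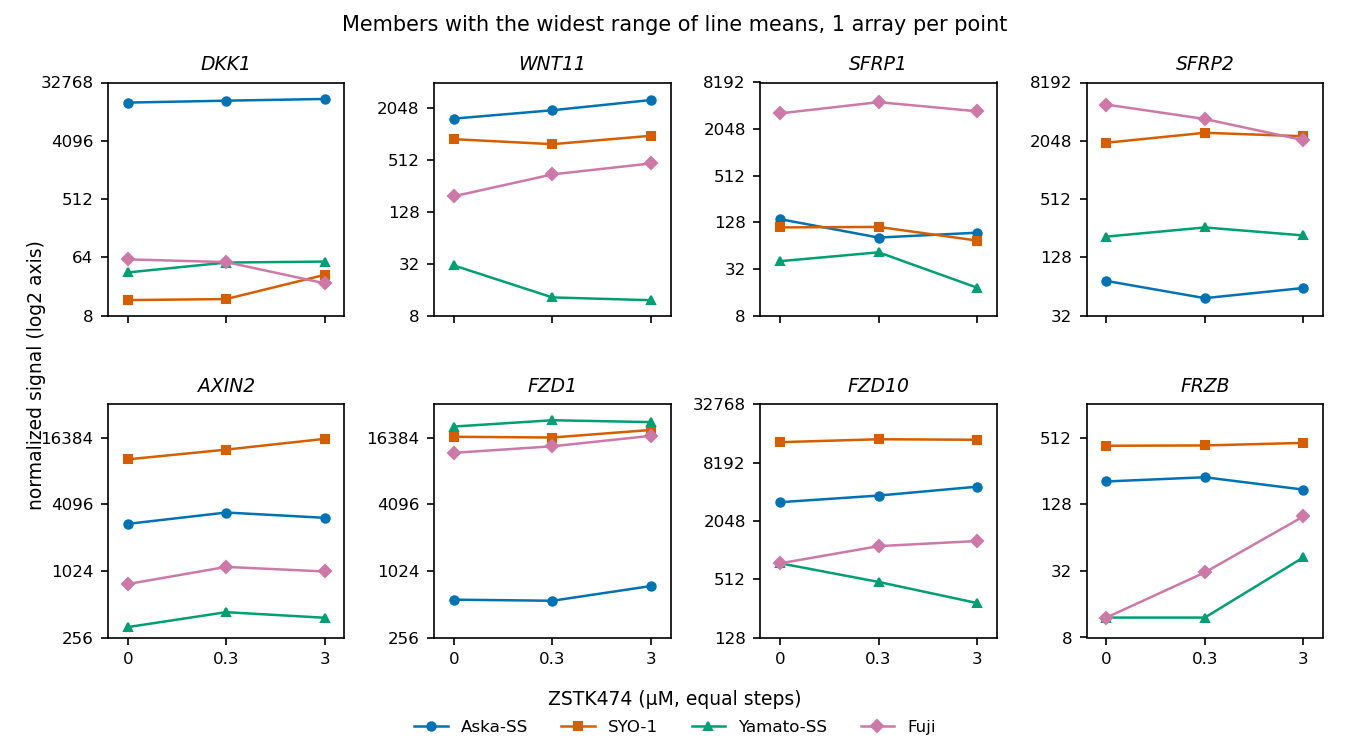
Normalized signal (y axis, log2 scale) against ZSTK474 dose in µM (x axis, equal steps) for the 8 members with the widest range of line means; each point is 1 array and each line joins the arrays of a cell line. DKK1 was high only in Aska-SS and SFRP1 only in Fuji, FZD1 was low only in Aska-SS, and FZD10 was lower at each higher dose in Yamato-SS, from 748 to 290.4.

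After 24 h with 3 µM ZSTK474, 10 of the 32 tested Wnt genes rose and 2 fell relative to vehicle, and 20 did not pass the test. The rises comprised 5 receptor genes (FZD1, FZD2, FZD3, FZD7 and LRP6), the TCF factors TCF7L1 and TCF7L2, AXIN2, DKK3 and WNT16, and the falls were the ligands WNT7B and WNT10B. Among all genes tested 22.6% rose and 21.1% fell, so that the share of members that rose (31.3%) was above the background and the share that fell (6.25%) below it; neither difference was tested. The median log2 change was 0.20 over the members and 0.01 over all genes tested. At an unadjusted p under 0.05 the count was 14 of 32, against 6191 of all 12132 genes tested. The fold change of the 10 risen genes ran from 1.24 to 1.96, and the falls were to 0.489 and 0.542 of the vehicle level.

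**Figure D3:**
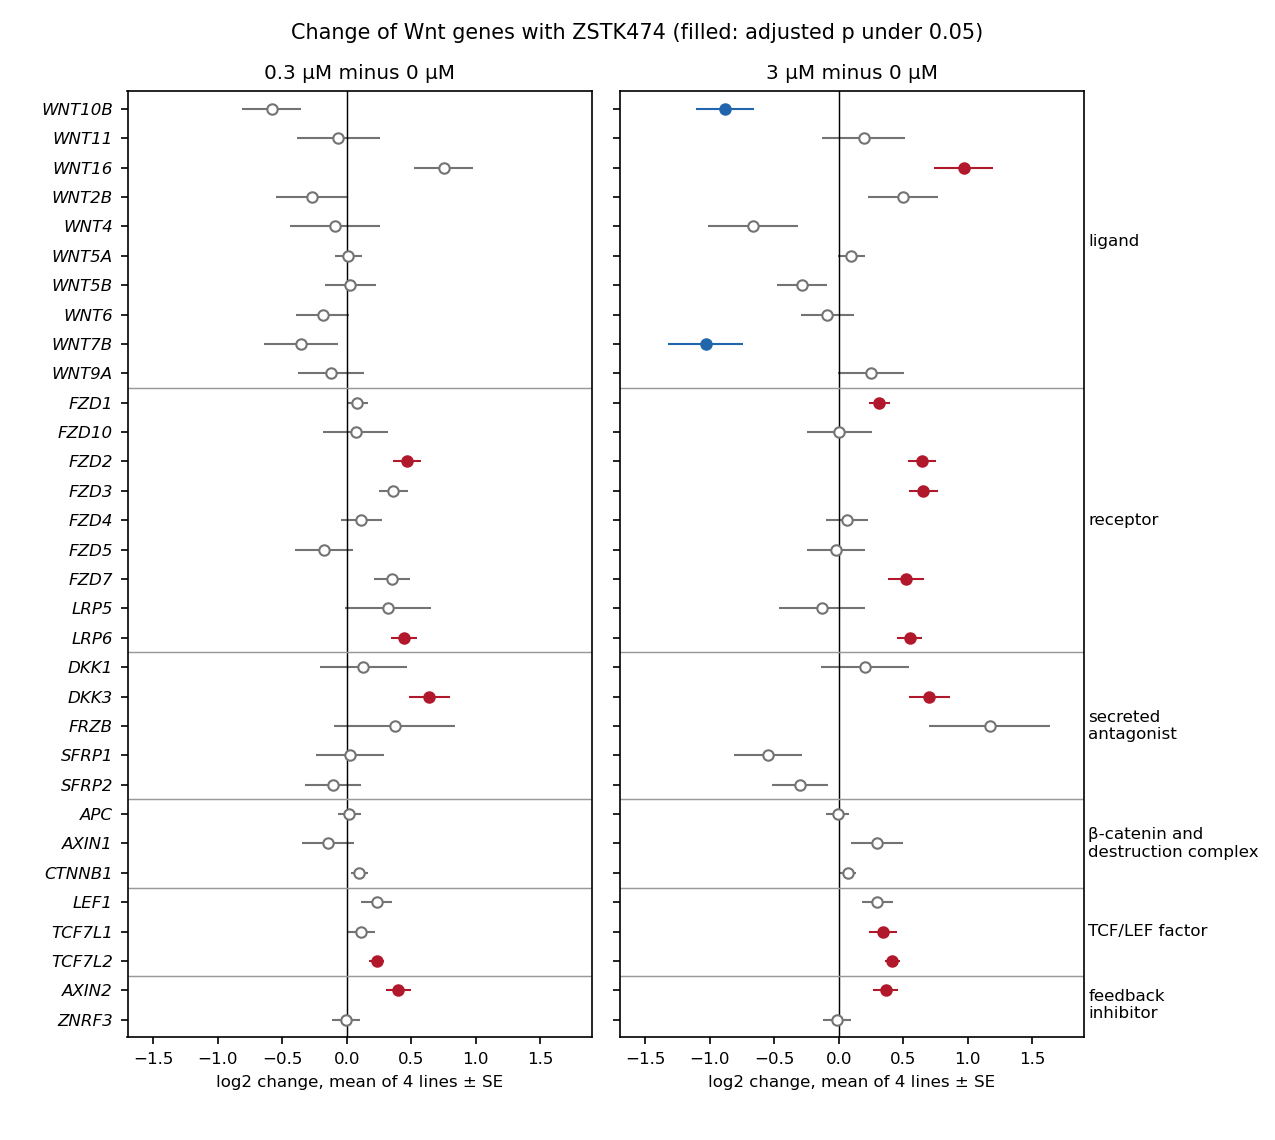
Log2 change (x axis) at 0.3 and 3 µM ZSTK474 relative to 0 µM for the 32 tested Wnt genes (y axis, grouped by role). Points are means over the 4 lines, bars the SE of the limma fit, and filled points passed the test, in red where they rose and in blue where they fell. At 3 µM 10 points are red and 2 blue, and at 0.3 µM 5 are red and none blue.

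Of the 9 receptor genes tested, 5 rose at 3 µM (55.6%, against 22.6% of all genes) and none fell (against 21.1%); these backgrounds hold for each role below. FZD2 had signals at 0, 0.3 and 3 µM of 1553, 2014 and 2525 in Fuji, 1386, 2035 and 1996 in Aska-SS, 329.7, 536 and 651 in Yamato-SS, and 1118, 1321 and 1448 in SYO-1. Every line was higher at 3 µM than at 0 µM, and FZD2 rose by 0.65 ± 0.11 (SE) on the log2 scale (1.56-fold, n = 4 lines, adjusted p = 0.000649). FZD3, a receptor best known in planar polarity and axon guidance, had signals of 585, 804 and 948 in Fuji, 352, 445 and 512 in Aska-SS, 424, 505 and 791 in Yamato-SS, and 1252, 1642 and 1759 in SYO-1, with each dose above the one before in each line. It rose by 0.66 ± 0.11 (SE) on the log2 scale (1.58-fold, adjusted p = 0.000642), and 3 further FZD3 probe sets had changes of 0.26, 0.87 and 0.51, of which the second passed on its own (adjusted p = 0.00532).

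LRP6, the co-receptor that Wnt ligands bring together with a Frizzled, gave 1481, 2496 and 2547 in Fuji, 1975, 2756 and 2628 in Aska-SS, 1711, 2099 and 2344 in Yamato-SS, and 1546, 1835 and 2261 in SYO-1. All lines were higher at both doses, and LRP6 rose by 0.55 ± 0.0983 (SE) on the log2 scale at 3 µM (1.46-fold, adjusted p = 0.000858). Its 2 other probe sets, dimmer, gave log2 changes of 0.08 and 0.09 that did not pass (adjusted p of 0.711 and 0.716), and with the mean of the probe sets LRP6 was not called (adjusted p = 0.0915). FZD7 gave 8173, 8438 and 8145 in Fuji, 2729, 4398 and 5948 in Aska-SS, 2548, 3146 and 3032 in Yamato-SS, and 2822, 3644 and 4614 in SYO-1. It was higher in 3 of 4 lines, most in Aska-SS (1.12 on the log2 scale), and -0.00 in Fuji; the mean rise was 0.52 ± 0.14 (SE) on the log2 scale (1.43-fold, adjusted p = 0.0106). That call was lost without Aska-SS, where the value was 0.32 (adjusted p = 0.0798), and without SYO-1, where it was 0.46 (adjusted p = 0.0717).

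FZD1, whose signals are given above, rose by 0.31 ± 0.0824 (SE) on the log2 scale (1.24-fold, adjusted p = 0.00864) and was higher in 4 of 4 lines, by 0.13 to 0.51. Without Fuji, the line whose actin 3′ to 5′ ratio shifted most, the rise was 0.25 (adjusted p = 0.05997), and the 2 dimmer FZD1 probe sets did not pass (0.26 and 0.04); with the mean of the probe sets FZD1 was not called (0.20, adjusted p = 0.253). The receptors that did not pass were FZD4 (0.07 ± 0.16), FZD5 (-0.02 ± 0.23), FZD10 (0.00 ± 0.25) and LRP5 (-0.13 ± 0.33, with line values from -1.45 in Aska-SS to 0.93 in Fuji).

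Both TCF genes of the 3 TCF/LEF genes tested rose. TCF7L2, which encodes the TCF4 protein, had signals of 7604, 9043 and 9876 in Fuji, 4904, 6203 and 6748 in Aska-SS, 9818, 11220.2 and 12893 in Yamato-SS, and 6458, 7173 and 8674 in SYO-1. Each line was higher at each higher dose, and the line changes at 3 µM lay between 0.38 and 0.46, the narrowest spread of the 12 changed members. TCF7L2 rose by 0.41 ± 0.0583 (SE) on the log2 scale (1.33-fold, adjusted p = 0.000179). Of 5 further TCF7L2 probe sets above the filter, 3 rose on their own (0.24, 0.30 and 0.30, adjusted p of 0.0382, 0.0309 and 0.0187), 1 gave 0.18 and 1 gave -0.33, neither of which passed, and with the mean of the probe sets the gene was not called (0.18, adjusted p = 0.0608).

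TCF7L1, which encodes TCF3, often a repressor, gave 742, 937 and 1032 in Fuji, 384, 448 and 488 in Aska-SS, 1710.1, 1617 and 1813 in Yamato-SS, and 864, 841 and 1199.8 in SYO-1. It rose by 0.34 ± 0.11 (SE) on the log2 scale (1.27-fold, adjusted p = 0.0239) and was higher in 4 of 4 lines, least in Yamato-SS (0.08). This call was lost without Aska-SS, SYO-1 or Fuji in turn (0.30 to 0.34, adjusted p of 0.0739, 0.0949 and 0.0832). LEF1 did not pass: its mean log2 change was 0.30 ± 0.12 (adjusted p = 0.0625), with 0.78 in Yamato-SS, 0.40 in SYO-1, 0.09 in Fuji and -0.07 in Aska-SS.

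AXIN2, with the signals given above, was higher at 3 µM in 4 of 4 lines, by 0.62 in SYO-1, 0.38 in Fuji, 0.28 in Yamato-SS and 0.18 in Aska-SS. It rose by 0.36 ± 0.0983 (SE) on the log2 scale (1.29-fold, adjusted p = 0.0101). The rise rested on SYO-1, without which it was 0.28 (adjusted p = 0.0752), and on the brightest probe set: the 3 others gave 0.13, 0.56 and 0.14 and did not pass (adjusted p of 0.66, 0.083 and 0.743), and with the mean of the sets AXIN2 was not called (0.30, adjusted p = 0.187). ZNRF3, the other tested gene of this group, had a log2 change of -0.01 ± 0.11.

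Of the 5 antagonists tested, DKK3 rose and none fell, near the background of 22.6% for rises. The DKK3 signal at 0, 0.3 and 3 µM was 1271, 1842 and 1476 in Fuji, 1300.2, 2157 and 2110.3 in Aska-SS, 129, 218 and 342 in Yamato-SS, and 1794, 2619.5 and 2523 in SYO-1. It was higher at both doses in every line, most in Yamato-SS (1.40), where the level was lowest, and least in Fuji (0.22). DKK3 rose by 0.70 ± 0.16 (SE) on the log2 scale (1.63-fold, adjusted p = 0.00383). A second probe set also rose (0.59, adjusted p = 0.0303), another gave 0.47 (adjusted p = 0.0529) and the last above the filter -0.19 (adjusted p = 0.54).

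FRZB had the largest mean change of any member, 1.17 ± 0.47, but did not pass (adjusted p = 0.0622). Its line changes were 3.04 in Fuji and 1.81 in Yamato-SS, both measured from a signal at the floor at 0 µM, and 0.09 in SYO-1 and -0.24 in Aska-SS. A second FRZB probe set, at the floor on the same lines' arrays at 0 µM, rose by 1.07 on its own (adjusted p = 0.0407). SFRP1 (-0.55 ± 0.26), SFRP2 (-0.30 ± 0.21) and DKK1 (0.20 ± 0.34) did not pass, and for SFRP2 the dimmer probe set fell by 0.89 (adjusted p = 0.0167), with 3919.5, 2406 and 1227 in Fuji at the 3 doses.

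Among the 10 ligands tested, WNT16 rose, and WNT7B and WNT10B fell. The WNT16 signal at 0, 0.3 and 3 µM was 102, 182 and 233 in Fuji, 147, 223 and 388 in Aska-SS, 32.8, 87.2 and 56.8 in Yamato-SS, and 1125, 1260.4 and 1573 in SYO-1. All lines were higher at both doses, and WNT16 rose by 0.97 ± 0.23 (SE) on the log2 scale (1.96-fold, adjusted p = 0.00477). A second WNT16 probe set, nearly as bright, gave -0.06 (adjusted p = 0.859), and the reporting set has a suffix that marks probes shared with other transcripts, so that the change is uncertain.

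WNT7B, a canonical ligand, gave 161, 185 and 73.8 in Fuji, 152, 136 and 81.4 in Aska-SS, 176, 67.8 and 81.2 in Yamato-SS, and 89.2, 84.3 and 44.8 in SYO-1. Every line was lower at 3 µM, by 0.90 to 1.13 on the log2 scale, and WNT7B fell by 1.03 ± 0.29 (SE) on the log2 scale (to 0.489 of the vehicle level, adjusted p = 0.0119). Its signal was close to the filter of 65.1, and its reporting set is also of the shared kind; a second set, below the filter, had a change of -1.50, which was not tested. WNT10B, a ligand known for holding back fat cell formation, gave 247, 104 and 88.02 in Fuji, 129, 78.6 and 63.9 in Aska-SS, 226, 175 and 141 in Yamato-SS, and 231, 233 and 182 in SYO-1. It too was lower in 4 of 4 lines, from -0.35 in SYO-1 to -1.49 in Fuji, and fell by 0.88 ± 0.23 (SE) on the log2 scale (to 0.542, adjusted p = 0.00781). A single probe set represented WNT10B, and its signal in Aska-SS at 3 µM lay below the filter. With the filter at the 65th percentile, WNT7B and WNT10B were removed before the test, and no member was called lower.

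The other ligands did not pass. WNT5A had a log2 change of 0.10 ± 0.11, WNT5B of -0.29 ± 0.20, WNT6 of -0.09 ± 0.20, WNT9A of 0.25 ± 0.26 and WNT2B of 0.50 ± 0.27. WNT4 was lower in Aska-SS (-1.77), SYO-1 (-0.91) and Yamato-SS (-0.96) and higher in Fuji (0.98), and WNT11 was higher in Fuji (1.27), Aska-SS (0.72) and SYO-1 (0.13) and lower in Yamato-SS (-1.34). Neither mean change exceeded the spread between lines (adjusted p of 0.145 and 0.663).

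No gene of the β-catenin and destruction complex group passed at any dose. CTNNB1 had a log2 change at 3 µM of 0.07 ± 0.0666, APC of -0.01 ± 0.0889 and AXIN1 of 0.29 ± 0.20 (adjusted p of 0.424, 0.946 and 0.263). The further probe sets of APC and CTNNB1 lay on both sides of 0, from -0.30 to 0.05 and from -0.18 to 0.16.

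**Figure D4:**
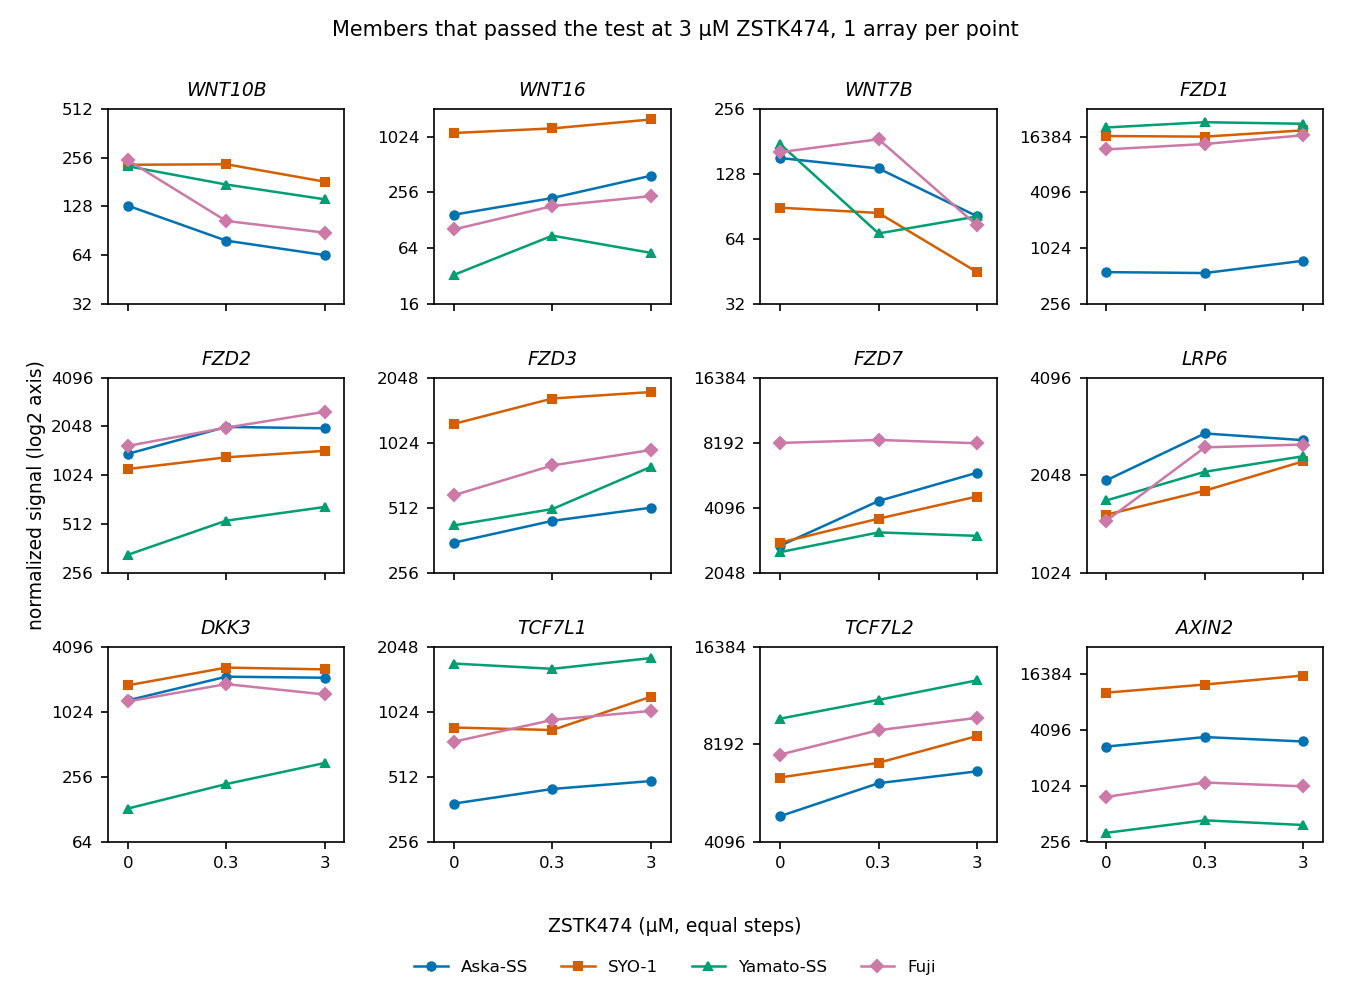
Normalized signal (y axis, log2 scale) against ZSTK474 dose in µM (x axis, equal steps) of the 12 Wnt genes that passed the test at 3 µM; each point is 1 array, and each line joins the arrays of a cell line. The 10 risen genes were higher at 3 than at 0 µM in all 4 lines except FZD7 in Fuji, and WNT7B and WNT10B were lower in all 4.

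At 0.3 µM, 5 members rose and none fell, against 4.57% of all genes higher and 3.35% lower; the members' share was 15.6%. DKK3 rose by 0.64 ± 0.16 (SE) on the log2 scale (adjusted p = 0.0343), FZD2 by 0.47 ± 0.11 (SE) on the log2 scale (adjusted p = 0.0288), LRP6 by 0.44 ± 0.0983 (SE) on the log2 scale (adjusted p = 0.0233), AXIN2 by 0.40 ± 0.0983 (SE) on the log2 scale (adjusted p = 0.033) and TCF7L2 by 0.23 ± 0.0583 (SE) on the log2 scale (adjusted p = 0.0343). Each was higher in 4 of 4 lines. These calls were close to the threshold: without any one line at most DKK3 remained. An unadjusted p under 0.05 was found for 9 of the 32 members, against 3204 of all 12132 genes tested. The comparisons at 0.3 and 3 µM share the vehicle arrays, and the values at both doses were 0.64 and 0.70 for DKK3, 0.47 and 0.65 for FZD2, 0.44 and 0.55 for LRP6, 0.40 and 0.36 for AXIN2 and 0.23 and 0.41 for TCF7L2.

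Between 0.3 and 3 µM none of the 32 members passed in limma, against 15.3% of all genes tested. An unadjusted p under 0.05 was found for 5 members, against 3660 of all 12132 genes tested. With an ordinary linear model per gene, TCF7L2 and WNT2B were among the 830 genes that passed. The largest mean steps were 0.80 for FRZB, 0.77 for WNT2B and -0.68 for WNT7B (adjusted p of 0.284, 0.0795 and 0.136).

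Only FZD10 had a dose trend that differed between cell lines (adjusted p = 0.0146, limma F test of line by dose step), against 0.585% of all genes tested. Its signal, given above, was lower at each higher dose in Yamato-SS, with a log2 change at 3 µM of -1.36, and higher at 3 µM in Aska-SS (0.53), Fuji (0.77) and SYO-1 (0.08), so that the mean over lines was 0.00. Without Yamato-SS the trends of the other lines did not differ in the test (adjusted p = 0.261). The call was also lost with no filter on dim probe sets (adjusted p = 0.188) and with no variance moderation (adjusted p = 0.206). WNT11, which had the same directions of change in the lines, had an adjusted p of 0.0869 for its trend, and FZD7 of 0.0697.

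The wider pathway was read from 95 further Wnt genes in 6 lists, of which 80 were tested; 28 rose (35.0%, against 22.6% of all genes) and 5 fell (6.25%, against 21.1%) at 3 µM, and their median log2 change was 0.20, against 0.01 over all genes tested. Dishevelled proteins and nuclear cofactors of β-catenin made up 11 of the rises, out of 19 tested (57.9%, against 22.6% of all genes), and none fell (against 21.1%). These included all 3 Dishevelled genes, DVL1, DVL2 and DVL3 (0.49, 0.35 and 0.28), and the histone acetyltransferases CREBBP (0.90 ± 0.0797, adjusted p = 1.34e-05) and EP300 (0.73 ± 0.13, adjusted p = 0.000945), which serve many pathways besides Wnt. Of 15 kinases and degradation genes, 6 rose (40%, against 22.6% of all genes) and 1 fell (6.67%, against 21.1%): TNKS, a tankyrase that marks AXIN for degradation, rose by 0.92 ± 0.11 (adjusted p = 7.57e-05), BTRC, the ubiquitin ligase subunit that recognizes phosphorylated β-catenin, rose by 0.47 ± 0.13 (adjusted p = 0.012), and CSNK1E, a casein kinase, fell by 0.80 ± 0.18 (adjusted p = 0.00343). GSK3A and GSK3B had changes of -0.05 and 0.17 and did not pass.

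Of 10 other inhibitors, 3 rose and 2 fell, shares near those of all genes (22.6% and 21.1%). KREMEN2, a receptor for Dickkopfs, fell by 1.56 ± 0.30 (adjusted p = 0.00139), while its relative KREMEN1 rose by 0.57 ± 0.20 (adjusted p = 0.0402). At 3 µM the KREMEN2 signal was 23.8 in SYO-1, 39.9 in Fuji and 62.6 in Yamato-SS, below the filter of 65.1. In Aska-SS it was 348 at 0 and 283 at 3 µM. DACT1, which binds Dishevelled, rose by 0.66 ± 0.13 (adjusted p = 0.00184), and APCDD1, a membrane-bound inhibitor, fell by 0.56 ± 0.20 (adjusted p = 0.038). The APCDD1 signal at 0 and 3 µM was 740 and 300 in Aska-SS and 3736 and 2055 in Fuji. In SYO-1 it was 1757 and 1723, and in Yamato-SS 1197 and 1163. Of 6 genes for Wnt secretion, R-spondins and their receptors, 1 rose and 1 fell (16.7% each, against 22.6% and 21.1% of all genes). WLS, which carries Wnt proteins to the cell surface, rose by 0.56 ± 0.14 (adjusted p = 0.00648), and LGR6 fell by 0.61 ± 0.22 (adjusted p = 0.0385). LGR6 was lower at 3 than at 0 µM in Aska-SS, SYO-1 and Fuji, but higher in Yamato-SS, its highest line (1445 at 0 and 1910 at 3 µM). Of 15 non-canonical co-receptor and planar polarity genes, 3 rose and none fell (against 22.6% and 21.1% of all genes), among them PTK7 (0.60 ± 0.13, adjusted p = 0.00228) and the glypican GPC4 (0.46 ± 0.0691, adjusted p = 0.000284).

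Of 15 tested genes otherwise known as β-catenin targets, 4 rose (26.7%, near the 22.6% of all genes) and 1 fell (6.67%, against 21.1%), with a median log2 change of -0.01. ID2 rose by 0.82 ± 0.18 (adjusted p = 0.00369) and MYC by 0.60 ± 0.12 (adjusted p = 0.00145), and VEGFA fell by 0.66 ± 0.14 (adjusted p = 0.00287); each of these also answers to other pathways. CD44 and TWIST1 rose by 0.48 and 0.51, and CCND1, which encodes cyclin D1, had a change of -0.41 ± 0.19 (adjusted p = 0.102). The TWIST1 signal at 0 and 3 µM was 1644 and 3225 in Aska-SS, 3803 and 3829 in SYO-1, and 3734 and 4192 in Yamato-SS. In Fuji it was 31.9 and 59.7, below the filter of 65.1. At 0.3 µM 3 of the 80 genes of the 6 lists rose (3.75%, against 4.57% of all genes) and none fell (against 3.35%).

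The choice of probe set mattered for several members. Of the 12 genes that changed at 3 µM, 9 had further probe sets above the filter, 21 in all; 18 of these had the sign of the reporting set, and 5 passed on their own, all in the same direction. In 14 of the 44 genes the probe sets differed in sign at 3 µM, dim sets included: APC, CTNNB1, DKK3, FZD4, LEF1, NKD1, SFRP1, SFRP4, TCF7L2, WNT16, WNT2B, WNT4, WNT6 and WNT9A. The widest of these spans were NKD1, from -1.32 to 0.89 over 3 sets below the filter, and WNT2B, from -1.28 to 0.66 over 4 sets of which 1 passed it. Among the changed genes, FZD1, FZD2, FZD3, FZD7, LRP6 and AXIN2 each had 2 to 4 probe sets with changes above 0 throughout. Their dimmer sets did not pass on their own, apart from an FZD3 set with a change of 0.87 (adjusted p = 0.00532, limma). The dimmer sets of FZD2 and FZD7 gave 0.25 and 0.34 (adjusted p of 0.246 and 0.112).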

How the data were processed

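RNA from 4 synovial sarcoma cell lines at 3 doses was hybridized to U133 Plus 2.0 arrays (12 arrays). The deposited values are the authors' MAS5 signal intensities per probe set, whose 2% trimmed mean was 500.1 on every array; the methods name quantile normalization, and the values as deposited were not quantile-normalized. Here the 54675 probe sets were quantile-normalized, floored at the 20th percentile (12.1), converted to log2 and, without 62 controls, kept where the mean exceeded the median (6.03 on the log2 scale). The annotation of the platform gave 41097 probe sets 1 symbol, 1801 several and 11777 none; only the first were used, the brightest for each gene. limma 3.58.1 (R 4.3.3) was fitted to 12132 genes with cell line as a block and a variance trend, and p-values were adjusted over all genes (Benjamini-Hochberg, 0.05). F tests compared lines, and line by dose step (0, 1, 2). Arrays were paired because the same line was measured at each dose. Deviations from the dose means correlated at 0.828 to 0.931 within lines and -0.430 to -0.0892 between lines. Taking out the mean of the lines pulls the correlations between lines below 0, so only those within lines bear on the pairing.

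Members and lists were chosen with earlier results of these data known. By rule the text names members that passed at any dose, the 2 brightest of each role, the 8 with the widest range of line means, all below the filter, those whose probe sets differ in sign, and from each wider list the 2 largest rises and falls at 3 µM among genes that passed; FZD5, LRP5, AXIN1, DVL1, DVL2, DVL3, GSK3A, GSK3B, CD44, TWIST1 and CCND1 were named where the rule did not ask for it, after their values were seen. Scripts were tested on simulated data. Arrays have no read depth; their number limits precision.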

Additional observations from a re-analysis of the deposited data

Results flagged for a closer look

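In 7 of the 96 groups of 4 lines examined (each of 32 genes, its log2 level at 0 µM and its changes at 0.3 and 3 µM), 1 line lay far from the others relative to the group's range; chance alone marks about 1 group in 20. For log2 level at 0 µM these were DKK3 in Yamato-SS (7.01, against 10.31 to 10.81 in the other lines), FZD1 in Aska-SS (9.14, against 13.54 to 14.33), FZD7 in Fuji (13.00, against 11.32 to 11.46), WNT10B in Aska-SS (7.01, against 7.82 to 7.95) and ZNRF3 in SYO-1 (11.71, against 9.03 to 9.47). For log2 change at 0.3 µM they were FRZB in Fuji (1.36, against 0.00 to 0.13), measured from a signal at the floor, and WNT5B in Fuji (0.62, against -0.24 to -0.13). No log2 change at 3 µM was marked in this way.

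The dose trend of FZD10 differed between lines (adjusted p = 0.0146, limma F test of line by dose step), with a log2 change at 3 µM of -1.36 in Yamato-SS and of 0.08 to 0.77 in the other lines. Without Yamato-SS the adjusted p was 0.261, with no filter 0.188 and with no moderation 0.206. A single probe set represented FZD10.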

How the results depend on the processing

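Of the log2 changes at 3 µM of the 12 members that passed there, 128 of 154 values under other settings kept their direction and their side of the threshold. The other 26 kept the direction but lost the call, and none reversed. With no filter, the higher filter, no moderation, no replicate block or the 2 doses alone, the change equals the main value by construction. No reversal was possible under those settings. Members with the widest range of line means were picked from these same data, so repeats of their test between lines are not counted as support. Without the replicate block, that is with cell lines left unpaired, 0 members were called at 3 µM, 0 at 0.3 µM and 0 between 0.3 and 3 µM, since the spread then held the differences between lines. Leaving out a line gave 9 to 14 members at 3 µM, 0 to 1 at 0.3 µM, 0 to 2 between 0.3 and 3 µM, 24 to 29 that differed between lines and 0 to 1 with a differing dose trend (0 without Yamato-SS). At 0.3 µM, 0 members were called with no filter on dim probe sets or with no variance moderation, and 1 with probe sets averaged per gene, against 5. Between 0.3 and 3 µM, 1 (TCF7L2) was called with the filter at the 65th percentile and 2 without moderation. The differing trend of FZD10 was lost, leaving 0 members, with no filter (adjusted p = 0.188) and with no moderation (0.206). When all probe sets above the filter were tested on their own, an analysis chosen after seeing the data, the 12 reporting sets kept their calls at 3 µM. Their values were the same as in the main fit, so only the moderation and adjustment could move those calls. Of the 21 further sets of these genes above the filter, 5 passed. Values under no quantile normalization, the pseudocount, the higher floor and the fit of 2 doses alone changed no count of members by more than 1.5 times. The cause of the other shifts was not tested. Signals near the floor, as for FRZB, WNT7B and LRP5 in Aska-SS, limit what a change can show, and 4 lines limit the precision of every change.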
